A study of Mus musculus with 8 samples.

Results

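The genes of the cell cycle and of DNA replication were followed through 4 preparations of mouse spleen. A list of 50 gene symbols defined the set, and every probe that the array annotation assigns to one of them was taken as a member probe. Of the 50 genes, 46 had at least 1 probe (79 probes in all, among 15967 named genes on the array), and 39 had a probe that was detected on both arrays of at least 1 group and was tested. *Mcm3*, *Gins1*, *Mki67* and *Ccnb1* had no probe, so the proliferation marker *Mki67* and the mitotic cyclin *Ccnb1* have no value here. *Gins2*, *Pola1*, *Ccna2*, *Ccnb2*, *Bub1*, *Ube2c* and *Cdkn1b* had a probe but did not meet the detection rule, so neither cyclin A2 nor cyclin B2 could be followed.

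The study asked which transcripts of the splenic stroma depend on the lymphotoxin β receptor (LTβR), and profiled 8 Illumina MouseRef-8 arrays, 2 in each group. The fresh WT stroma (genotype LTbR+/+) and LTβR-KO stroma (LTbR-/-) are what stayed on a 70 µm mesh after spleens of C57BL/6 mice aged 8 to 10 weeks were rubbed through it, and the WT splenocytes are what the wash carried away. The KO line lacks the receptor in all tissues and had been backcrossed to C57BL/6. The WT cultured stroma was grown from adherent cells of minced LTbR+/+ spleens in serum-containing medium and taken at week 3 to 4, after 2 to 3 passages. The deposited design text lists the 2 arrays of a group as technical replicates of an extract, whereas the study's own text speaks of biological replicates, so the p-values rest on the variation between paired arrays, which could be of technical origin alone.

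A cell that enters the cycle switches on D-type cyclins, which with CDK4 or CDK6 inactivate the retinoblastoma protein and free E2F factors. E2F factors in turn drive genes for the MCM helicase, the replication fork and nucleotide supply, and a later wave of genes builds the mitotic machinery. Inhibitors of the INK4 family (*Cdkn2a*, *Cdkn2b*, *Cdkn2c*) block CDK4 and CDK6, and those of the CIP/KIP family (*Cdkn1a*, *Cdkn1b*, *Cdkn1c*) bind a wider range of cyclin-CDK complexes. In the spleen, dividing cells are known among germinal centre B cells, activated T cells, erythroid precursors and immature myeloid cells of the red pulp as well as among stromal cells.

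All values below are background-corrected, quantile-normalized bead signals on the log2 scale, differences are log2 differences between group means with their SE (n = 2 arrays per group), and a gene with several probes is represented by its brightest tested probe. A difference is called higher or lower where limma's adjusted p, corrected over 12389 probes, was under 0.05. Between 9900 and 11283 of 24613 probes were detected on an array. The *Ltbr* probe read 6.44 and 6.80 in WT stroma and 6.82 and 7.18 in LTβR-KO stroma (difference 0.38, SE 0.20, adjusted p = 0.257). The sources used here do not say if the probe falls inside the deletion, so it does not check the labels. The chemokine gene *Ccl21a*, a known LTβR target, read 12.98 and 12.97 in WT stroma against 9.34 and 9.43 in LTβR-KO stroma.

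In cultured stroma 4 of the 5 tested CDK inhibitors were higher and 1 lower than in fresh WT stroma, and 5 of the 7 tested helicase genes were lower. Of the 39 tested members 10 rose, 16 fell and 13 did not pass. Over all 9003 named genes tested, 31.9% rose and 32.8% fell (64.7% either way), so the number of members that changed was near the background. The CDK inhibitors *Cdkn1a*, *Cdkn2b*, *Cdkn2a* and *Cdkn2c* rose together with *Ccnd3*, *Cdk4* and *Cdk1*, whereas 5 of the 7 measured helicase genes, *Pole*, *Lig1* and the inhibitor *Cdkn1c* fell. The median difference of the members was -0.27, against -0.06 over all genes. Of the 26 calls, 16 held under all 21 alternative settings. The count of 16 lower members fell to 10 without cultured replicate 1 and to 8 when the arrays were scaled to their 75th percentile.

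Between fresh WT stroma and splenocytes, most members were lower in stroma. Of 39 members, 20 were lower, 6 were higher and 13 did not pass, while over all genes 27.7% were lower and 27.1% higher (54.9% either way). The median difference was -0.44, against -0.03 over all genes. The members higher in stroma were the cell cycle entry gene *Ccnd1*, *Cdk4*, *Cdk2*, the ligase gene *Lig1* and the inhibitors *Cdkn1c* and *Cdkn1a*. This count fell from 6 to 3 without splenocyte replicate 1 and likewise to 3 without splenocyte replicate 2, and *Cdk4*, *Cdk2* and *Lig1* each have another probe that was called lower. Of the 26 calls, 16 held under all 20 alternatives. Cultured stroma compared with splenocytes gave 22 lower, 7 higher and 10 not passing members, against 29.5% lower and 30.0% higher over all genes (59.6% either way), with a median of -0.59 (all genes -0.04).

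The LTβR-KO stroma differed less from WT stroma. Of 39 members, 10 were higher, 1 was lower and 28 did not pass, where 5.40% of all genes were higher and 7.96% lower (13.4% either way). The higher members were *Mcm4*, *Mcm6*, *Mcm7*, *Cdc6*, *Rfc3*, *Pole*, *Rrm1*, *Top2a*, *Ccne1* and *Cdkn2c*, by 0.52 to 0.82, and the lower one was *Ccnd1*. The median difference was 0.45, against 0.01 over all genes. On their brightest probes all 25 tested members of the replication, nucleotide and mitosis roles lay above 0 (0.11 to 0.81), also under the other 5 corrections and scalings tried. Those settings reuse the same arrays, and the share of all genes above 0 was not computed. Dimmer tested probes of *Mcm7* (-0.16), *Rrm2* (-0.09) and *Cdc20* (-0.03 and -0.12) lay below 0. *Plk1* (8.54) and *Aurkb* (5.65) each had an LTβR-KO array below both WT arrays. The calls of single members depended on the arrays. Without WT replicate 1 none of the 10 higher members held its call, and the median difference was 0.33. Calls among the 10 were also lost without LTβR-KO replicate 2 (median 0.35) and without WT replicate 2 (median 0.50). All 10 differences stayed above 0 in these fits, but the 10 had been picked with the remaining arrays in the fit. *Ccnd1* alone held its call under all 20 alternatives.

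The plot of signals by array shows these members role by role. The plot of differences sets the comparisons side by side.

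**Figure D1:**
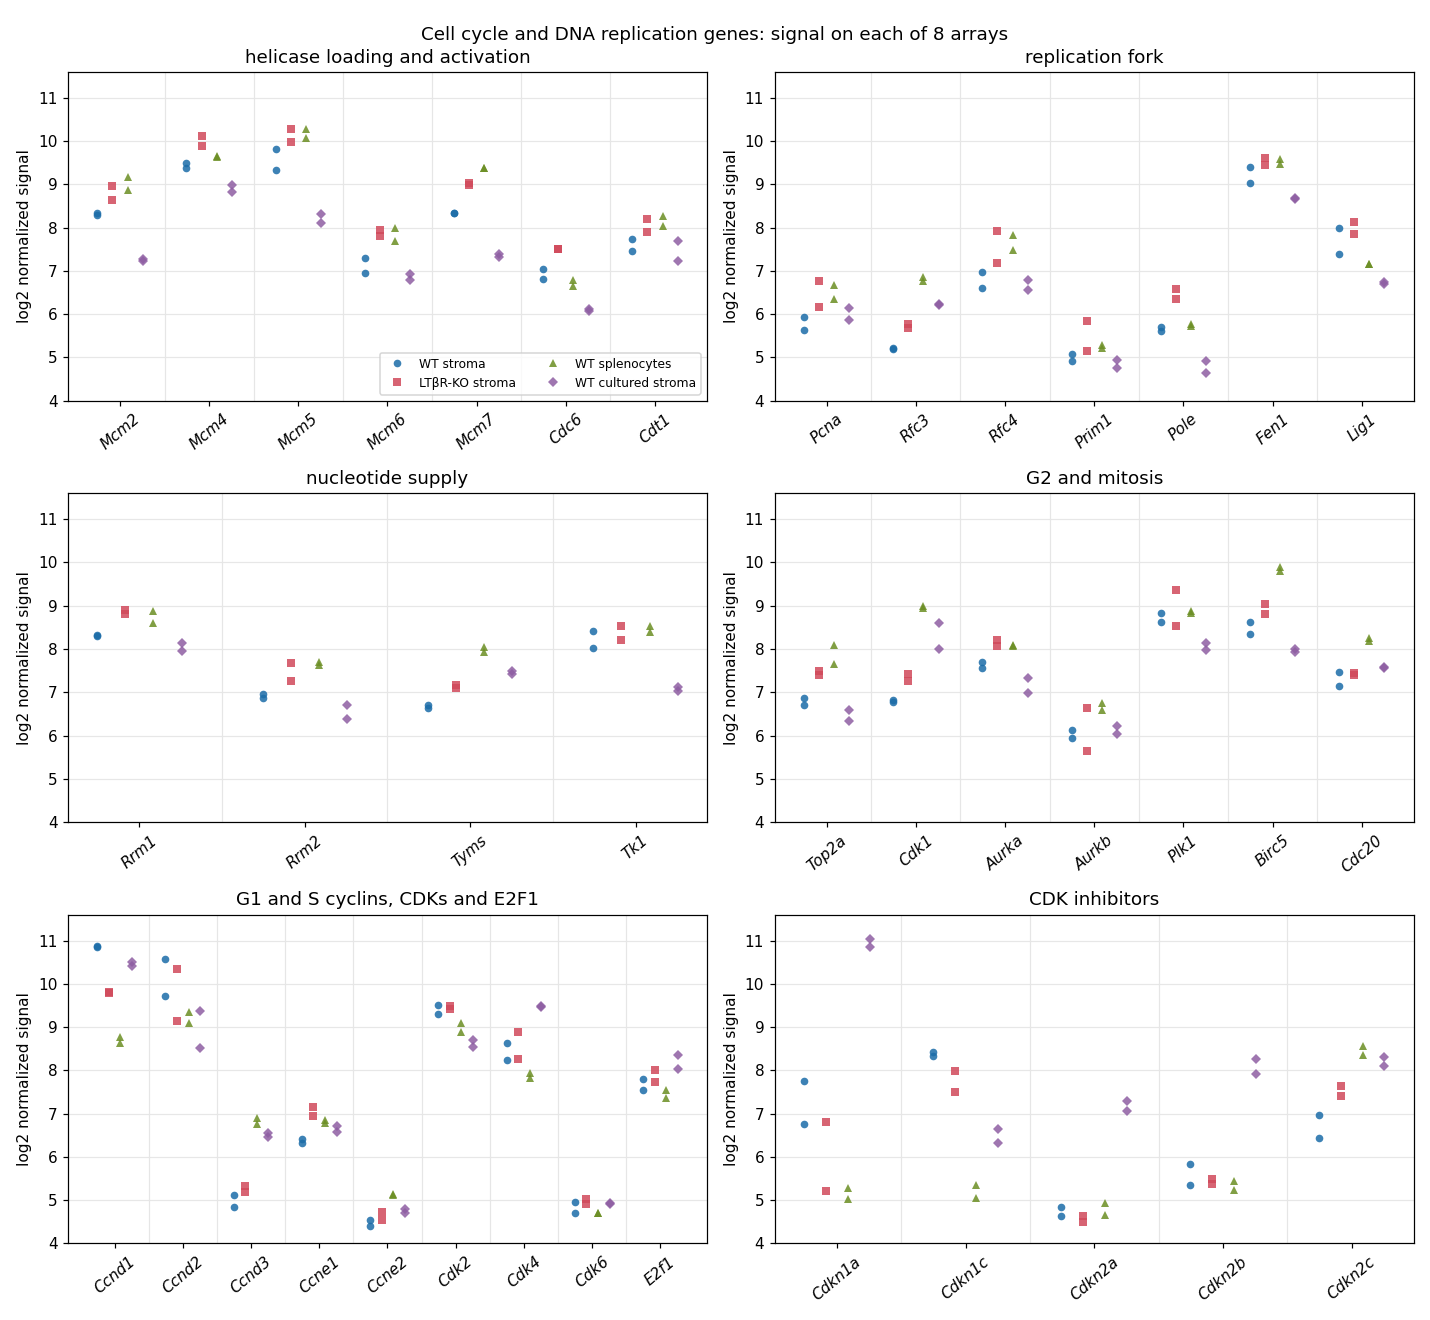
Log2 normalized signal of the brightest tested probe of 39 genes on each of 8 arrays, in 6 panels by role, with 2 points per group (blue circles WT stroma, red squares LTβR-KO stroma, green triangles WT splenocytes, purple diamonds WT cultured stroma). In cultured stroma the 2 points of *Cdkn1a* lie at 10.84 and 11.03, above all other groups, and those of *Mcm2*, *Mcm5* and *Mcm7* lie below all other groups.

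**Figure D2:**
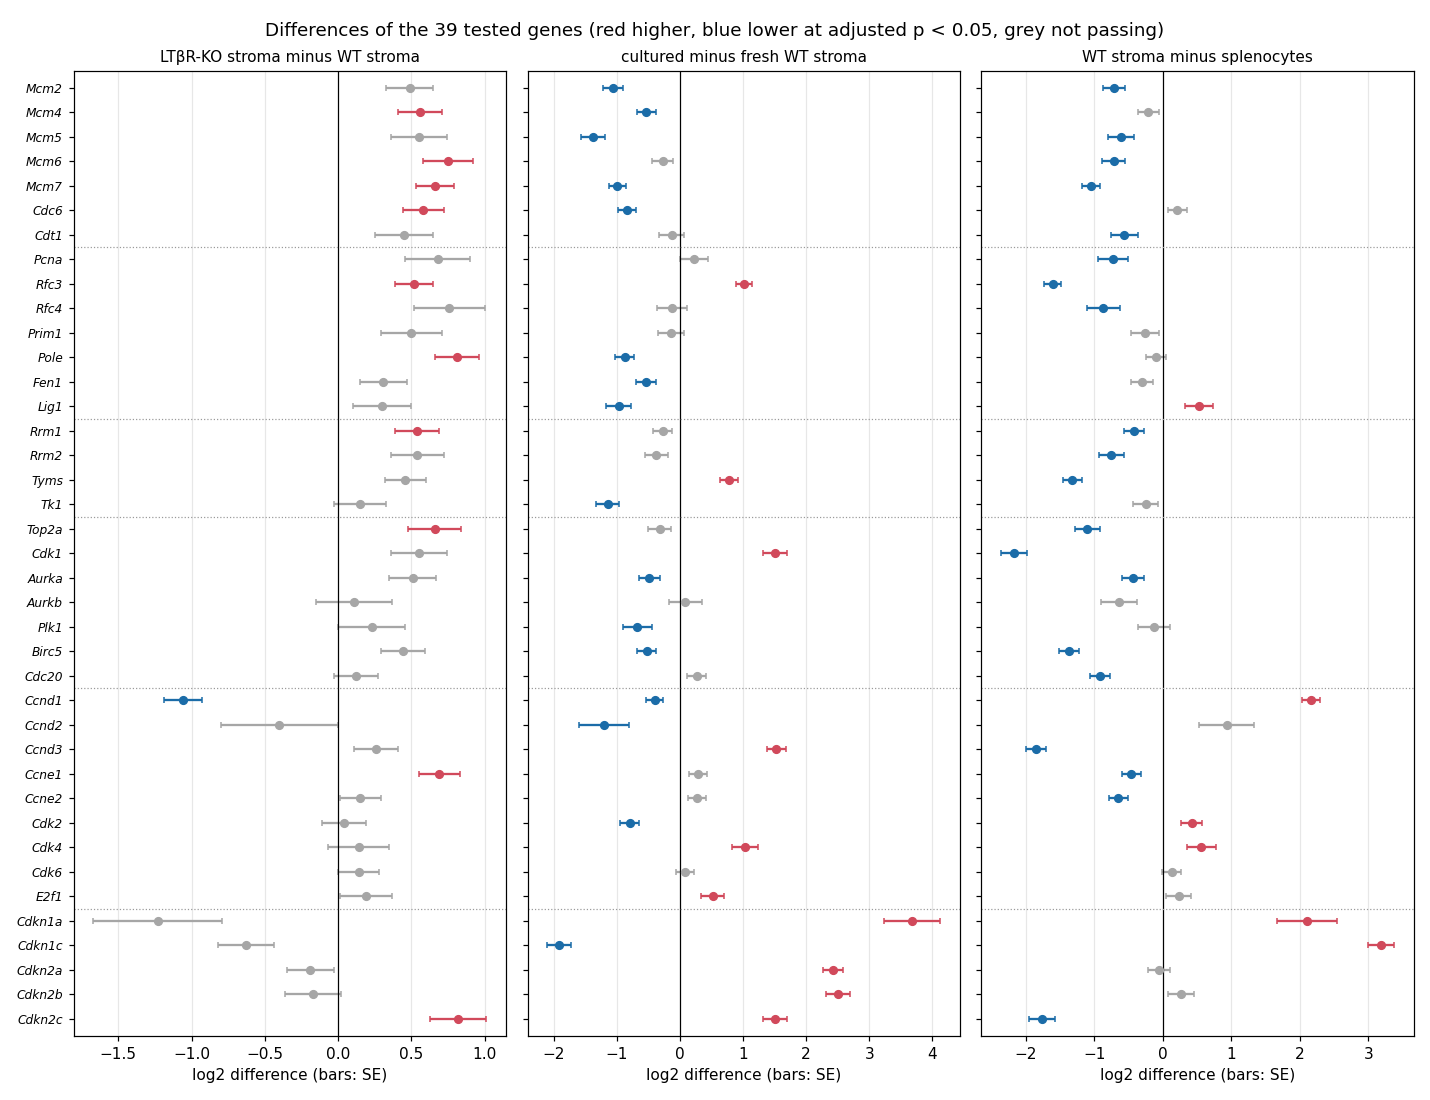
Log2 differences of the 39 tested genes in 3 comparisons with 2 arrays per group, with bars for the SE of the limma fit; red points were called higher and blue points lower at an adjusted p under 0.05, grey points did not pass, and dotted lines part the roles. The left panel has 10 red points and 1 blue point, the middle panel 10 red and 16 blue, and the right panel 6 red and 20 blue.

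Other cell types moved along with these comparisons. Relative to WT stroma, the LTβR-KO stroma had higher signals for 5 of 8 tested B cell markers, 8 of 10 T and NK cell markers, 10 of 10 markers of immature granulocytes and 4 of 13 erythroid markers, and lower signals for 7 of 11 endothelial, 3 of 5 smooth muscle and 4 of 6 plasma cell markers. Of 12 fibroblast and reticular cell markers 2 were higher and 4 lower, and of 12 macrophage markers 2 were higher and 3 lower. Of 4 tested germinal centre B cell markers 1 was higher and 3 did not pass. Of 7 megakaryocyte and platelet markers 1 was higher and 1 lower. Over all genes 5.40% were higher and 7.96% lower. The log2 of the summed signal of the immature granulocyte markers was 11.54 and 11.83 in WT stroma and 13.07 and 13.31 in LTβR-KO stroma. For T and NK markers it was 11.47 and 11.63 against 12.58 and 12.80, and for B cell markers 13.21 and 13.32 against 14.28 and 14.29. Their part in the member differences was not tested, and in such bulk samples fewer cells of a type and less RNA per cell cannot be told apart.

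The cultured stroma had lost most blood cell and endothelial signal. Of 14 erythroid markers on the array 12 were detected on neither cultured array, *Hba-a1* and *Alas2* among them, as were 7 of 10 B cell markers (*Cd79a* and *Cd79b* included), 6 of 11 T and NK markers (*Cd3e* included), 8 of 11 immature granulocyte markers (*Mpo* and *Elane* included) and 8 of 12 endothelial markers (*Pecam1* and *Cdh5* included). The summed erythroid signal dropped from 15.73 on both WT stroma arrays to 10.55 and 10.04. Macrophage markers rose instead, 9 of 12 higher and 3 lower, where 31.9% of all genes were higher and 32.8% lower. Their summed signal was 16.32 and 16.29 against 13.36 and 13.24. Fibroblast markers were mixed (4 higher, 6 lower, 2 not passing of 12, beside the same shares of all genes). Among them *Pdgfra* was detected on both cultured arrays, and *Ccl21a* and *Cxcl13* on neither. The part of these shifts in the member differences was not tested. In splenocytes 6 of 12 fibroblast markers were detected on neither array, *Col1a1*, *Col1a2* and *Col3a1* among them, while B cell markers remained at 13.21 and 13.32 in WT stroma (14.41 and 14.44 in splenocytes), so that lymphocyte transcripts were present in the fresh stroma as well.

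Of the 7 tested genes that license and open replication origins, 5 fell in culture on their brightest probe, where 32.8% of all genes fell. CDC6 and CDT1 load the MCM2-7 ring, the replicative helicase, onto DNA. Promoter windows from RefSeq (GRCm38.p6, 250 bases before to 50 after each start) were found for 40 of the 50 genes and searched on both strands for the E2F motifs TTTGGCGC, TTTCGCGC, TTTGCCGC and TTTCCCGC and for TTTGAA, the cell cycle homology region found at genes of the mitotic wave. An E2F motif was present at 12 of the 40 genes, against 2.60% of 27025 genes in the table (2.26% of all windows), and 6 of the 7 helicase genes with a window held one (*Cdc6*, *Cdt1*, *Mcm3*, *Mcm5*, *Mcm6* and *Mcm7*). TTTGAA was present at 11 of the 40 genes, against 20.2% of genes in the table (17.9% of all windows), and at 8 of the 11 with a G2 or mitosis role (*Aurka*, *Ccnb2*, *Cdc20*, *Cdk1*, *Mki67*, *Plk1*, *Top2a* and *Ube2c*). The lines below show the stretch before the start of 4 helicase genes and of *Cdk1* and *Top2a*, in the direction of transcription with the motif in capitals, because *Mcm5*, *Mcm7* and *Cdc6* fell and *Cdk1* rose in culture, while *Mcm6* and *Top2a* were higher in LTβR-KO stroma. In *Mcm5* and *Mcm6* the motifs TTTCGCGC and TTTGGCGC overlap on opposite strands.
Mcm5, E2F motif, chr8:75109336-75109387, + strand: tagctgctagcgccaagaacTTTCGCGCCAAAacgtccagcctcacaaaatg
Mcm6, E2F motif, chr1:128359784-128359835, - strand: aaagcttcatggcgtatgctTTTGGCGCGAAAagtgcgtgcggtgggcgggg
Mcm7, E2F motif, chr5:138172021-138172068, - strand: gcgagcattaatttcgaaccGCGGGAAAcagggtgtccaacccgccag
Cdc6, E2F motif, chr11:98907993-98908040, + strand: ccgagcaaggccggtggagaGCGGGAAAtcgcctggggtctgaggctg
Cdk1, E2F motif, chr10:69353016-69353063, - strand: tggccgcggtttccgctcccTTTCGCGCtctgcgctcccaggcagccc
Cdk1, cell cycle homology region, chr10:69352958-69353003, - strand: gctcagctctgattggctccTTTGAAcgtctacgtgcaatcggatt
Top2a, cell cycle homology region, chr11:99024343-99024388, - strand: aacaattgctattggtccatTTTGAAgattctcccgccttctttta
A match of letters is a description of the window and shows no binding.

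On their brightest probes none of the 7 rose in culture by limma's adjusted or unadjusted p, *Mcm6* and *Cdt1* did not pass, and all 7 were lower in cultured stroma than in splenocytes. By the adjusted p 31.9% of all genes rose in culture, and 29.5% were lower in cultured stroma than in splenocytes. *Mcm5*, a ring subunit, read 9.34 and 9.81 in WT stroma, 9.98 and 10.28 in LTβR-KO stroma, 10.08 and 10.29 in splenocytes and 8.10 and 8.31 in cultured stroma. The cultured arrays lay below all others, and the fall from WT stroma was 2.58-fold (-1.37, SE 0.19, adjusted p = 9.86e-05). *Mcm2* read 8.33 and 8.29 in WT stroma, 8.63 and 8.97 in LTβR-KO stroma, 8.88 and 9.16 in splenocytes and 7.28 and 7.23 in cultured stroma, a 2.08-fold fall in culture (-1.06, SE 0.16, adjusted p = 0.000211). *Mcm7* read 8.33 and 8.35, 9.03 and 8.98, 9.39 and 9.39, and 7.38 and 7.32 in the same order of groups. Its 4 groups did not overlap, with cultured stroma lowest, then WT stroma, LTβR-KO stroma and splenocytes. It was 1.58-fold higher in LTβR-KO than in WT stroma (0.66, SE 0.13, adjusted p = 0.00959) and 1.99-fold lower in culture than in WT stroma (adjusted p = 6.72e-05), although its second probe, at 5.22 to 6.09 on the 8 arrays, was called in neither comparison. *Mcm4* fell by 0.53 in culture and was 0.56 higher in LTβR-KO stroma (adjusted p = 0.0312). Its call in LTβR-KO stroma was lost under 9 of 20 alternatives.

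*Cdc6*, the loader, read 6.81 and 7.05 in WT stroma, 7.51 and 7.50 in LTβR-KO stroma, 6.79 and 6.65 in splenocytes and 6.11 and 6.08 in cultured stroma. The LTβR-KO arrays were the highest of all 8, 0.58 above WT stroma (SE 0.14, adjusted p = 0.0267), and the cultured arrays the lowest (-0.84, adjusted p = 0.000435). Its call in LTβR-KO stroma was lost under 6 of 20 alternatives. *Mcm6* read 6.96 and 7.30 in WT stroma, 7.80 and 7.95 in LTβR-KO stroma, 7.99 and 7.70 in splenocytes and 6.80 and 6.92 in cultured stroma. LTβR-KO stroma exceeded WT stroma 1.68-fold (0.75, SE 0.17, adjusted p = 0.0173), a call lost under 3 of 20 alternatives. The second *Mcm6* probe did not pass limma's test there (0.49, adjusted p = 0.105). In culture the brightest *Mcm6* probe gave -0.27 (adjusted p = 0.186) and the second rose by 0.50 (adjusted p = 0.0308). *Cdt1* passed the test only in the comparisons with splenocytes (WT stroma -0.56, cultured stroma -0.69).

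The genes of the replication fork did not move together. *Pole*, the catalytic subunit of the leading strand polymerase, read 5.61 and 5.70 in WT stroma, 6.34 and 6.58 in LTβR-KO stroma, 5.72 and 5.77 in splenocytes and 4.64 and 4.91 in cultured stroma. The LTβR-KO arrays stood above all others, with a 1.75-fold difference from WT stroma (0.81, SE 0.15, adjusted p = 0.00797). In culture *Pole* fell by 0.87 (adjusted p = 0.000533) and was detected on 1 of 2 arrays. *Rfc3*, a subunit of the complex that loads the sliding clamp, read 5.22 and 5.20, 5.68 and 5.78, 6.77 and 6.87, and 6.22 and 6.24 in WT stroma, LTβR-KO stroma, splenocytes and cultured stroma. WT stroma was the lowest group for this gene, so that *Rfc3* rose in culture (1.02, SE 0.13, adjusted p = 6.19e-05), whereas *Pole* fell. It was also higher in LTβR-KO stroma (0.52, SE 0.13, adjusted p = 0.0298), a call lost under 10 of 20 alternatives.

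The clamp gene *Pcna* read 5.63 and 5.94 in WT stroma, 6.16 and 6.77 in LTβR-KO stroma, 6.67 and 6.35 in splenocytes and 5.86 and 6.15 in cultured stroma. Only its lower level in WT stroma than in splenocytes passed the test (-0.73, SE 0.22, adjusted p = 0.0165). *Rfc4*, another clamp loader subunit, gave -0.87 between WT stroma and splenocytes and 0.76 between LTβR-KO and WT stroma that did not pass (adjusted p = 0.0663). *Lig1*, which joins Okazaki fragments, read 7.39 and 8.0 in WT stroma, 8.12 and 7.86 in LTβR-KO stroma, 7.15 and 7.17 in splenocytes and 6.70 and 6.75 in cultured stroma. It fell in culture by 0.97 (SE 0.20, adjusted p = 0.00134) on its brightest probe. *Fen1*, the flap endonuclease that trims those fragments, fell by 0.54 (adjusted p = 0.0136), with 9.03 and 9.41 in WT stroma against 8.67 and 8.69 in culture. *Prim1*, a primase subunit, passed in no comparison and was detected on neither cultured array.

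Nucleotide supply split likewise. *Tyms*, thymidylate synthase, read 6.71 and 6.64 in WT stroma, 7.17 and 7.09 in LTβR-KO stroma, 8.05 and 7.93 in splenocytes and 7.50 and 7.42 in cultured stroma. It rose in culture (0.78, SE 0.14, adjusted p = 0.000486), on its second tested probe as well (at least 2.12-fold), and in WT stroma lay 2.49-fold below splenocytes (-1.32). *Rrm2*, the cycle-regulated subunit of ribonucleotide reductase, read 6.97 and 6.87, 7.25 and 7.68, 7.71 and 7.63, and 6.38 and 6.71 in WT stroma, LTβR-KO stroma, splenocytes and cultured stroma. WT stroma lay below splenocytes (-0.75, adjusted p = 0.00441), and the difference of -0.37 in culture did not pass. Its partner *Rrm1* read 8.32 and 8.31 in WT stroma, 8.91 and 8.80 in LTβR-KO stroma, 8.59 and 8.87 in splenocytes and 8.13 and 7.96 in cultured stroma. It was higher in LTβR-KO than in WT stroma (0.54, SE 0.15, adjusted p = 0.0430), a call lost under 14 of 20 alternatives. *Tk1*, thymidine kinase, read 8.42 and 8.02 in WT stroma, 8.54 and 8.20 in LTβR-KO stroma, 8.53 and 8.40 in splenocytes and 7.13 and 7.02 in culture on its brightest probe. It fell in culture by 1.14 on that probe (adjusted p = 0.000225) and rose by 0.54 on another (7.47 and 6.96 against 7.73 and 7.77, adjusted p = 0.0373).

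Among the brightest probes of 7 tested genes of G2 and mitosis, 1 rose in culture (*Cdk1*), 3 fell and 3 did not pass, and dimmer probes of *Cdc20* and *Birc5* rose. Over all genes 31.9% rose and 32.8% fell in culture. *Cdk1*, the kinase that drives entry into mitosis, read 6.77 and 6.82 in WT stroma, 7.27 and 7.42 in LTβR-KO stroma, 9.0 and 8.94 in splenocytes and 8.01 and 8.60 in cultured stroma. The 4 groups did not overlap. Culture exceeded WT stroma 2.84-fold (1.51, SE 0.19, adjusted p = 4.04e-05), and WT stroma lay 4.51-fold below splenocytes (-2.17, SE 0.19, adjusted p = 3.86e-06), the largest negative difference among the brightest probes in that comparison. *Top2a*, topoisomerase IIα, read 6.70 and 6.87 in WT stroma, 7.39 and 7.49 in LTβR-KO stroma, 7.66 and 8.10 in splenocytes and 6.60 and 6.34 in cultured stroma. It was 1.58-fold higher in LTβR-KO than in WT stroma (0.66, SE 0.18, adjusted p = 0.0366), a call lost under 9 of 20 alternatives, and 2.14-fold lower in WT stroma than in splenocytes (adjusted p = 0.000385). In culture its difference of -0.32 did not pass (adjusted p = 0.144).

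*Birc5*, the chromosomal passenger protein survivin, read 8.34 and 8.62 in WT stroma, 8.80 and 9.03 in LTβR-KO stroma, 9.90 and 9.81 in splenocytes and 7.92 and 8.0 in cultured stroma on its brightest probe. WT stroma lay 2.59-fold below splenocytes (-1.37, SE 0.15, adjusted p = 2.91e-05), and all 3 probes gave this direction. Between LTβR-KO and WT stroma the brightest *Birc5* probe did not pass limma's test (0.44, adjusted p = 0.0979). Both others were called higher in LTβR-KO stroma (0.74, adjusted p = 0.0119, and 0.52, adjusted p = 0.0425). *Plk1*, a kinase of spindle assembly, fell in culture (-0.67, SE 0.23, adjusted p = 0.0251), with 8.83 and 8.63 in WT stroma, 8.54 and 9.37 in LTβR-KO stroma, 8.88 and 8.84 in splenocytes and 8.14 and 7.98 in culture. *Aurka*, a kinase of the centrosome, read 7.56 and 7.70, 8.08 and 8.21, 8.09 and 8.06, and 6.98 and 7.33 in the same order and fell by 0.48 (adjusted p = 0.0211). The falls of *Plk1* and *Aurka* in culture were lost under 6 and 3 of 21 alternatives. *Aurkb*, a kinase of the chromosomal passenger complex, passed in no comparison.

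*Cdc20*, an activator of the anaphase-promoting complex, read 7.15 and 7.46 in WT stroma, 7.44 and 7.41 in LTβR-KO stroma, 8.18 and 8.26 in splenocytes and 7.57 and 7.58 in cultured stroma on its brightest probe. It was lower in WT stroma than in splenocytes (-0.92, adjusted p = 0.000393), and its difference of 0.27 in culture did not pass (adjusted p = 0.135). A second probe read 4.64 and 4.74, 4.78 and 4.54, 6.02 and 5.79, and 6.53 and 6.16 in the same order, and was at least 2.87-fold higher in culture than in WT stroma (adjusted p = 1.11e-05). The remaining probe read 4.80 and 4.82 in WT stroma and 6.30 and 6.06 in culture, a rise of 1.37 (adjusted p = 4.05e-05). The rise of *Cdc20* in culture was called with the mean of its probes and with scaling to the 75th percentile.

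The 3 D cyclins each had a pattern of their own. *Ccnd1* read 10.87 and 10.85 in WT stroma, 9.82 and 9.79 in LTβR-KO stroma, 8.76 and 8.64 in splenocytes and 10.42 and 10.51 in cultured stroma. Its groups did not overlap, WT stroma being highest and splenocytes lowest. The LTβR-KO stroma carried 2.08-fold less than WT stroma (-1.06, SE 0.13, adjusted p = 0.000818), and all 4 *Ccnd1* probes were called lower (-1.01 to -1.70). WT stroma exceeded splenocytes 4.47-fold (2.16, SE 0.13, adjusted p = 3.41e-07), again on all 4 probes. In culture the probes differed, since the brightest fell (-0.40, adjusted p = 0.0247) and another rose (0.70, adjusted p = 0.0338).

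*Ccnd3* was lowest in WT stroma and highest in splenocytes. It read 4.85 and 5.13 in WT stroma, 5.33 and 5.18 in LTβR-KO stroma, 6.77 and 6.89 in splenocytes and 6.56 and 6.46 in cultured stroma. Culture exceeded fresh WT stroma 2.88-fold (1.53, SE 0.15, adjusted p = 7.89e-06), and WT stroma lay 3.59-fold below splenocytes (-1.85, adjusted p = 2.80e-06). *Ccnd2* varied between the arrays of a group, with 10.58 and 9.72 in WT stroma, 10.34 and 9.15 in LTβR-KO stroma, 9.09 and 9.34 in splenocytes and 8.52 and 9.38 in cultured stroma. Its fall in culture (-1.20, SE 0.40, adjusted p = 0.0226) was lost under 5 of 21 alternatives. These were scaling to the 75th percentile, the authors' normalized values, no detection filter, and leaving out WT replicate 1 (-0.78) or cultured replicate 1 (-0.76).

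Of the kinases that D cyclins activate, *Cdk4* read 8.25 and 8.64 in WT stroma, 8.27 and 8.89 in LTβR-KO stroma, 7.93 and 7.83 in splenocytes and 9.49 and 9.46 in cultured stroma. It rose in culture on all 3 probes, by 1.03 on the brightest (SE 0.21, adjusted p = 0.00135) and by 2.44 and 1.74 on the others. *Cdk6* passed in no comparison. *Cdk2*, the partner of E cyclins, read 9.30 and 9.50 in WT stroma, 9.48 and 9.41 in LTβR-KO stroma, 9.09 and 8.88 in splenocytes and 8.69 and 8.53 in cultured stroma on its brightest probe, which fell in culture (-0.79, SE 0.15, adjusted p = 0.000832).

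*Ccne1*, a cyclin of S phase entry, read 6.41 and 6.31 in WT stroma, 7.16 and 6.94 in LTβR-KO stroma, 6.78 and 6.85 in splenocytes and 6.58 and 6.71 in cultured stroma. The LTβR-KO arrays were the highest of the 8, 1.61-fold above WT stroma (0.69, SE 0.14, adjusted p = 0.0121), a call lost under 4 of 20 alternatives. *Ccne2* was detected on both arrays in splenocytes only, at least 1.25-fold above WT stroma (adjusted p = 0.00261). *E2f1*, the factor itself, read 7.54 and 7.80 in WT stroma, 8.01 and 7.72 in LTβR-KO stroma, 7.54 and 7.35 in splenocytes and 8.35 and 8.03 in cultured stroma. Its rise in culture was small (0.52, SE 0.18, adjusted p = 0.0252) and was lost under 3 of 21 alternatives.

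The CDK inhibitors held the largest differences of the set, both in culture and between WT stroma and splenocytes. *Cdkn1a*, which encodes p21, read 7.75 and 6.75 in WT stroma, 6.81 and 5.22 in LTβR-KO stroma, 5.27 and 5.02 in splenocytes and 10.84 and 11.03 in cultured stroma. The cultured arrays lay far above all others, 12.9-fold above WT stroma (3.68, SE 0.44, adjusted p = 3.06e-05) and 55.3-fold above splenocytes (5.79, adjusted p = 9.87e-07). A second probe gave 6.38 and 6.45, 5.67 and 6.21, 5.10 and 5.08, and 10.15 and 10.45 in the same order, with a rise of 3.89 in culture (SE 0.19, adjusted p = 4.41e-08). Replicate 1 was the higher array in both fresh stroma groups on the brightest probe only. The difference between LTβR-KO and WT stroma did not pass on either probe, and the groups overlapped on the brightest (-1.23, adjusted p = 0.10, and -0.48, adjusted p = 0.138). *Cdkn1a* was called lower in LTβR-KO stroma with the mean of its probes, without WT replicate 2 and without LTβR-KO replicate 1.

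The INK4 genes rose with it. *Cdkn2b*, encoding p15, read 5.84 and 5.36 in WT stroma, 5.49 and 5.37 in LTβR-KO stroma, 5.44 and 5.24 in splenocytes and 8.27 and 7.92 in cultured stroma. The 3 uncultured groups overlapped, and culture exceeded WT stroma 5.65-fold (2.50, SE 0.19, adjusted p = 1.20e-06). *Cdkn2a* read 4.64 and 4.85 in WT stroma, 4.49 and 4.63 in LTβR-KO stroma, 4.66 and 4.93 in splenocytes and 7.06 and 7.29 in cultured stroma, on a probe annotated to the transcript that encodes p16INK4a. It was detected on 1 of 2 arrays in WT stroma and in splenocytes, on none in LTβR-KO stroma and on both in culture, where it was 5.39-fold above WT stroma (2.43, SE 0.16, adjusted p = 4.12e-07). The other *Cdkn2a* probe, annotated to the p19ARF transcript, rose by 0.44 (SE 0.15, adjusted p = 0.0239).

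*Cdkn2c*, encoding p18, separated the groups in another way. It read 6.43 and 6.96 in WT stroma, 7.40 and 7.64 in LTβR-KO stroma, 8.36 and 8.56 in splenocytes and 8.31 and 8.09 in cultured stroma. WT stroma was lowest, LTβR-KO stroma lay 1.77-fold above it (0.82, SE 0.19, adjusted p = 0.0202), and culture 2.83-fold above it (1.5, SE 0.19, adjusted p = 5.32e-05). In LTβR-KO stroma the second probe did not pass, and the call on the brightest was lost under 5 of 20 alternatives.

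*Cdkn1c*, encoding p57, was highest in fresh stroma. It read 8.34 and 8.42 in WT stroma, 7.50 and 7.99 in LTβR-KO stroma, 5.34 and 5.06 in splenocytes and 6.64 and 6.31 in cultured stroma. WT stroma exceeded splenocytes 9.09-fold (3.18, SE 0.19, adjusted p = 2.94e-07), and culture fell 3.76-fold below WT stroma (-1.91, SE 0.19, adjusted p = 9.46e-06). The lower level in LTβR-KO stroma did not pass (-0.63, adjusted p = 0.0597). *Cdkn1b*, encoding p27, read 4.32 to 5.39 over its 2 probes and 8 arrays and was not tested. The plot of inhibitors and D cyclins shows every tested probe of these genes.

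**Figure D3:**
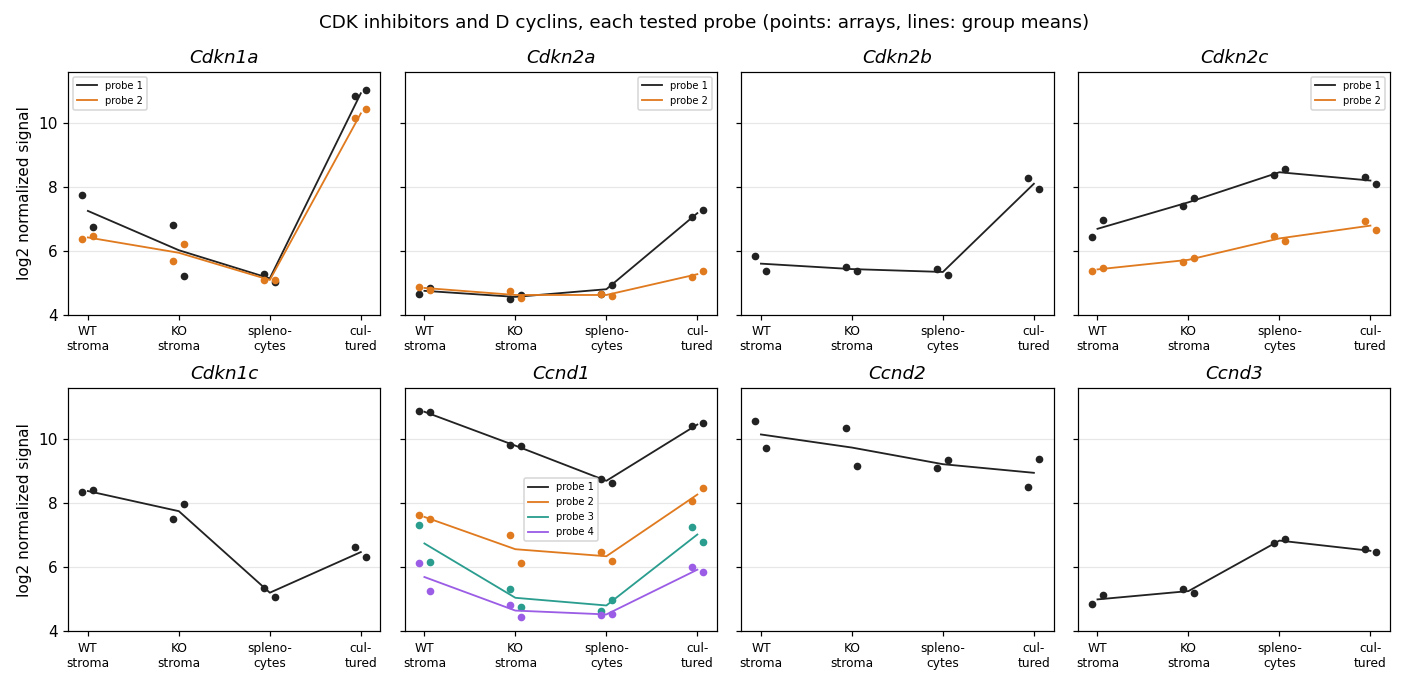
Log2 normalized signal of every tested probe of 5 CDK inhibitors and 3 D cyclins in WT stroma, LTβR-KO stroma, splenocytes and cultured stroma, with 2 points per group for the arrays and lines through the group means. Both *Cdkn1a* probes exceed 10 in culture only, and all 4 *Ccnd1* probes are lower in LTβR-KO than in WT stroma.

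Probes of a gene did not always go the same way. Of the 39 members, 14 had several tested probes. Between culture and WT stroma, probes of *Tk1*, *Birc5*, *Ccnd1* and *Cdk2* were called in opposite directions. For *Birc5* the brightest probe fell (-0.52, adjusted p = 0.0124) while 2 others rose (0.70 and 0.85), and the brightest is annotated to a different transcript from those. For *Cdk2* the 2 brighter probes fell (-0.79 and -0.64), one rose (0.82) and one did not pass. Between WT stroma and splenocytes this held for *Cdk4* (0.56, -2.00 and -1.42), *Cdk2* (0.42 on the brightest, -0.97 on the dimmest) and *Lig1* (0.53 on the brightest, at least 1.89-fold lower on another), and between culture and splenocytes for *Cdc20* (-0.65 and 0.44). Between LTβR-KO and WT stroma no member had probes called in opposite directions by limma. When a member counted only if all of its tested probes were called the same way, 10 rose and 10 fell in culture, 7 were higher and 1 lower in LTβR-KO stroma, and 3 were higher and 19 lower in WT stroma than in splenocytes. The 7 higher in LTβR-KO stroma had no second tested probe, so the rule could not remove them. *Mcm6*, *Mcm7* and *Cdkn2c* dropped out. Their second tested probes did not pass limma's test (0.49, adjusted p = 0.105, -0.16, adjusted p = 0.774, and 0.30, adjusted p = 0.263).

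**Figure D4:**
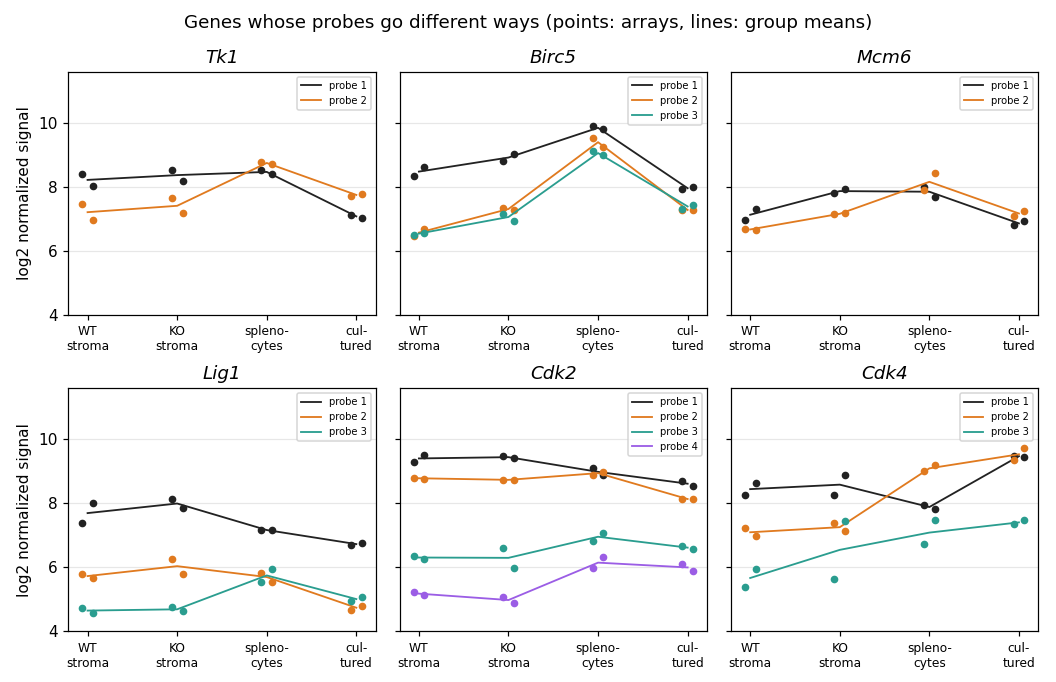
Log2 normalized signal of every tested probe of *Tk1*, *Birc5*, *Mcm6*, *Lig1*, *Cdk2* and *Cdk4* in the 4 groups, with 2 points per group for the arrays and lines through the group means. The brightest *Cdk4* probe is 0.56 higher in WT stroma than in splenocytes, whereas the difference on its second probe is -2.00.

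Of the 10 members called higher in LTβR-KO stroma, 7 were lower in WT stroma than in splenocytes and 3 did not pass there. For 4 of the 10 (*Mcm4*, *Cdc6*, *Pole* and *Ccne1*) both LTβR-KO arrays lay above both splenocyte arrays. The share of all genes placed in this way was not computed, and the part of splenocyte transcripts in these differences was not tested.

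Other genes of the same pathways were read from lists of 126 symbols, of which 115 were on the array and 81 were tested. In culture 16 of the 81 rose and 33 fell (median -0.22), where 31.9% of all genes rose and 32.8% fell (median -0.06). Of 31 other replication genes 7 rose and 12 fell, led by *Cdc7*, the kinase that fires origins (8.95 and 9.10 in WT stroma against 6.40 and 5.88, difference -2.88), *Pold1*, a catalytic subunit of the lagging strand polymerase (-2.69), and *Uhrf1*, which maintains DNA methylation (-1.35), while *Dtymk* (1.63), a thymidylate kinase, *Prim2* (1.05), a primase subunit, and *Asf1b* (0.73), a histone chaperone, rose. Of 34 other mitosis genes 2 rose (*Ckap2* at least 2.72-fold, *Spc25* at least 1.25-fold) and 15 fell, led by *Kif23* (-1.88), *Ncapd2* (-1.75) and *Incenp* (-1.63), which act in cytokinesis, chromosome condensation and the chromosomal passenger complex. Of 16 other regulators 7 rose and 6 fell. *E2f2*, an activating E2F factor, fell by 5.19 (11.03 and 10.58 in WT stroma against 5.31 and 5.93, SE 0.31, adjusted p = 1.69e-07), followed by *Tfdp2* (-0.95) and *Fbxw7* (-0.86), while *Mnat1* (1.86), *E2f3* (1.44) and *Tfdp1* (1.27) rose.

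Of the 81 genes, 8 were called higher and none lower in LTβR-KO than in WT stroma (median 0.29), where 5.40% of all genes were called higher and 7.96% lower (median 0.01). At an unadjusted p under 0.05 by limma 29 of the 81 were higher and none lower. The shares of all genes at that unadjusted threshold were not computed, so these counts cannot be set against the shares above. The 8 called higher were *Rpa3*, which encodes a subunit of the single-strand binding complex (0.99), *Dbf4* (0.93), *Uhrf1* (0.60) and *Chaf1b* (0.59) among replication genes, and *Cenpk* (1.17), *Kif4* (0.72), *Cdca3* (0.63) and *Kif23* (0.57) among mitosis genes. *Cenpk*, a kinetochore gene, read 5.41 and 5.30 in WT stroma and 6.34 and 6.70 in LTβR-KO stroma. Between WT stroma and splenocytes 11 were higher and 36 lower (median -0.30), where 27.1% of all genes were higher and 27.7% lower (median -0.03). *Rpa3* (-2.33), *Asf1b* (-2.08) and *Rpa2* (-1.80) lay furthest below splenocytes among replication genes, *Cenpm* (-1.42), *Cenpk* (-1.32) and *Spc25* (at least 1.98-fold) among mitosis genes, and *Cdkn2d*, which encodes the INK4 inhibitor p19, among regulators (-2.25). *Cdc7* (1.15), *Kif2c* (1.13), *Incenp* (0.95) and *Cdca2* (0.78) were higher in stroma. Between culture and splenocytes 53 of the 81 were lower and 6 higher (median -0.68), where 29.5% of all genes were lower and 30.0% higher (median -0.04).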

How the data were processed

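Per the labels and the study's methods, RNA was extracted with TRIzol, 400 ng was amplified, and 8 Illumina MouseRef-8 arrays were read with GenomeStudio. The authors deposited a non-normalized bead signal (a linear intensity) and a detection p-value for each of 24613 probes and array, and also intensity values after background subtraction and cubic spline normalization, used only as an alternative with a floor of 16. No column was left out.

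Signals were processed in R 4.3.3 with limma 3.58.1 by neqc (normexp background correction, its background moments estimated through the detection p-values, offset 16, quantile normalization, log2). The 12389 probes for which at least 1 group had detection p-values below 0.05 in duplicate were fitted over all 8 arrays (lmFit, eBayes, 4 residual and 6.22 prior degrees of freedom) and adjusted by the Benjamini-Hochberg procedure. Tests were two-sided. With 2 arrays a group, the number of arrays limits the precision. Where a probe was undetected throughout a group, its fold is given as at least the value computed against the lowest detected signal of each array. Gene symbols came from the array annotation and were matched to RefSeq by gene ID for 20968 probes, 0 symbols changing; 3628 probes had no symbol and 1 had several. The brightest tested probe, by its mean over the 8 arrays, stood for a gene (9003 genes).

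The member genes, role groups and other lists were chosen with earlier results of these data known. Values by array are given for the members with the largest called differences in each role and comparison, for the D cyclins, *Top2a*, *Pcna*, *E2f1* and the tested CDK inhibitors, and, on the brightest probe, for members whose probes disagree; of the other lists, up to 3 genes in each direction with the largest differences are named. *Ccl21a* and the marker genes named were picked as defining genes after their values were seen, as was the comparison of LTβR-KO with splenocyte values. The fit was tested on simulated arrays. Figures were drawn in Python with matplotlib. Alternatives were other background corrections, normalizations, detection filters and fits, the mean of a gene's probes, leaving out each array, and the replicate number as a block.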

Additional observations from a re-analysis of the deposited data

How the results depend on the processing

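Members called higher in LTβR-KO than in WT stroma numbered 10 in the analysis as reported, 5 with cyclic loess, 4 with scaling to the 75th percentile, 6 with the authors' normalized values, 2 when only the 2 groups were fitted, and 0 to 12 when 1 array was left out. The 1 lower member became 2 without background correction and with the mean of a gene's probes, and 1 to 2 when 1 array was left out. The median difference of 0.45 became 0.29 without background correction, 0.30 with an offset of 50, 0.28 without a detection filter, 0.33 with the mean of a gene's probes, and 0.33 to 0.55 when 1 array was left out. In culture against WT stroma the 16 lower members became 8 with the 75th percentile, 10 when every tested probe had to be called the same way (added after seeing the data), and 10 to 16 when 1 array was left out. The median of -0.27 became -0.07 with the 75th percentile, -0.12 without a detection filter, -0.08 with the mean of a gene's probes, and -0.31 to -0.10 when 1 array was left out. In WT stroma against splenocytes the 6 higher members became 3 with the 75th percentile, the authors' values, the mean of a gene's probes and the rule on every probe, and 3 to 7 when 1 array was left out. The median of -0.44 became -0.34 with an offset of 50, -0.55 with the 75th percentile, -0.29 without a detection filter and -0.56 with the mean of a gene's probes. In culture against splenocytes the median of -0.59 became -0.39 without background correction, -0.45 with an offset of 50, -0.43 with cyclic loess and -0.47 without a detection filter. With the mean of a gene's probes the direction turned for *Cdc20* between culture and splenocytes (0.04), *Birc5* (0.34) and *Ccnd1* (0.21) in culture against WT stroma, and *Cdk2* (-0.34), *Cdk4* (-0.95) and *Lig1* (-0.18) between WT stroma and splenocytes, whose probes disagree. Of these, *Birc5* (adjusted p = 0.0448) and *Cdk4* (adjusted p = 0.004) passed limma's test in the turned direction. With the 75th percentile the direction turned for *Ccnd1* in culture against WT stroma (0.41), which also passed limma's test (adjusted p = 0.0498). The cause of the other changes was not tested. Taking log2 before quantile normalization, added after seeing the data, left all 4 pairs of counts at their values.

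Replicate numbers were not taken to pair the arrays, since the labels tie them to no shared animal or batch. The correlation of replicate differences was 0.286 between WT and LTβR-KO stroma and -0.142 to 0.108 between the other pairs of groups. With the replicate number as a block, 10 members were higher and 2 lower in LTβR-KO stroma (*Ccnd1* and *Cdkn1a*), with *Mcm5* gained and *Rrm1* lost among the higher, and the counts in the other 3 comparisons stayed at their values. Crossing the numbers of the cultured arrays, added because their correlation with WT stroma was -0.115, left 10 members higher and 16 lower.

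With 2 arrays a group, small differences could not be called, and signals near background, as for *Cdkn2a* in the uncultured groups, understate a fold. Whether the 2 arrays of a group share an extract was not settled by the sources.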

Other observations

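Genes known as targets of p53, the tumour suppressor that also drives *Cdkn1a*, were read from a list of 21 symbols, of which 15 were tested and which held no member of the set. In culture against WT stroma 10 of the 15 rose, none fell by limma's adjusted or unadjusted p and 5 did not pass. Over all genes 31.9% rose and 32.8% fell by the adjusted p. The median difference was 1.24 against -0.06 over all genes. *Ccng1*, encoding cyclin G1, read 4.92 and 4.84 in WT stroma, 5.21 and 5.65 in LTβR-KO stroma, 6.63 and 6.73 in splenocytes and 8.12 and 8.48 in cultured stroma, a rise of 3.42 in culture (SE 0.18, limma's adjusted p = 8.21e-08). *Plk2*, a kinase of the stress response, read 5.95 and 5.86 in WT stroma and 8.56 and 7.91 in culture (2.33), and *Gadd45a*, a growth arrest gene, 8.40 and 8.54 against 10.53 and 10.64 (2.12). *Mdm2*, which encodes the ubiquitin ligase of p53, did not pass (9.72 and 9.65 against 9.89 and 9.73, difference 0.12). Between LTβR-KO and WT stroma 1 of the 15 was higher (*Ddit4*, 1.07) and 1 lower (*Phlda3*, -0.73), where 5.40% of all genes were higher and 7.96% lower. Between WT stroma and splenocytes 4 were higher and 6 lower (median -0.34), where 27.1% of all genes were higher and 27.7% lower (median -0.03).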
